A study of Mus musculus with 12 samples.

Results

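The 7 genes described here encode subunits of the GABA-A receptor, the chloride channel through which GABA gives fast inhibition in the brain. They are Gabra2, Gabra3, Gabra4 and Gabra5 (alpha subunits), Gabrb1 and Gabrb2 (beta subunits) and Gabrd (delta subunit). They were taken by symbol as main brain subunit genes of the receptor, 7 of the 24015 rows of the count table and 7 of the 19 GABA-A subunit genes in it. A GABA-A receptor is a ring of 5 subunits, GABA binds where a beta subunit meets an alpha subunit, and the alpha subunit sets much of the pharmacology and placement of the receptor. Receptors with the delta subunit, which in the forebrain often pair with alpha 4, lie outside synapses and carry a tonic current, which in the hippocampus is best known from granule cells of the dentate gyrus. Alpha 5 receptors carry a tonic current in pyramidal cells, alpha 2 receptors are found at synapses including those on the axon initial segment, and alpha 3 is known more from other brain regions than from the hippocampus.

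RNA was sequenced from sorted hippocampal nuclei of mice in 4 groups of 3 libraries, whose titles call them Basal, Early, Late and Reactivated. All mice carried ArcCreERT2, a tamoxifen-dependent Cre driven by the activity gene Arc, together with R26R-STOP-floxed-eYFP, a fluorescent reporter that Cre switches on. Every group was given 4-hydroxytamoxifen 1 h before contextual fear conditioning, within a dark period that ran from 24 h before to 48 h after it, and hippocampi were collected 1.5 to 2 h after conditioning or from day 5, when some mice were shown the conditioning tone and context again. After fixation in 1% paraformaldehyde, nuclei were sorted by NeuN, Arc and GFP antibodies, 10000 nuclei per condition from pools of 10 to 12 mice, in 3 biological replicates that are not said to be separate pools. The treatment label reads the same for all 12 libraries, so the groups rest on the titles alone, and the labels do not tie a sorting gate to a title. Because Arc drives the Cre, marked nuclei are those of cells in which Arc was active around the drug, whatever their cell type. In these bulk libraries, fewer cells of a type and less RNA per cell cannot be told apart.

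Total counts ran from 4838166 to 11120255 per library. Rn45s, the ribosomal RNA precursor, took 4.72% to 12.9% of the counts in Basal and Early and 18.8% to 36.5% in Late and Reactivated, and within their groups Basal 3 and Early 3 had the highest shares. Replicates 1 and 2 of Basal, Early and Late lay much closer to each other (chi-square per gene 3.07 to 4.21) than either lay to replicate 3 (24.1 to 40.9), although none came within sampling noise. Results are therefore also given without Basal 3 and Early 3 where that changes a call. That fit keeps only the closely alike replicates 1 and 2 of Basal and Early, so its p-values may be too small. Late 3, also far from Late 1 and Late 2, was kept in it. Same-numbered Basal and Early libraries deviated together from their group means (correlations 0.143 to 0.484 over genes, against -0.400 to 0.223 in their other pairs). A fit that pairs them is given where it changes a call, although numbers 1 and 2 are not clearly matched. The Rn45s share runs with the groups, and with that share as a covariate none of the 7 genes passed in Late against Basal, Reactivated against Basal, Late against Early or Reactivated against Early. Levels are normalized counts, that is counts divided by the effective library size, and differences are log2 fold changes ± SE from the quasi-likelihood test of edgeR with Benjamini-Hochberg adjustment across the 15668 tested genes and a threshold of 0.05.

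All 7 subunit genes passed the filter on low counts and all 7 differed among the 4 groups in edgeR, with adjusted p from 2.17e-05 for Gabra3 to 0.0369 for Gabrb2, where 58.6% of all genes tested did so. By group mean, Gabra3 was highest in Late, Gabrd and Gabra4 were highest in Basal, Gabrb2 was lowest in Late, and Gabra2 was lowest in Reactivated. Not each of these groups stood apart from all others. Reactivated against Late did not pass for Gabra2 (edgeR adjusted p 0.541) or Gabrb2 (0.109), nor did Early against Basal for Gabra4 (0.192). The summed level of the 7 genes was 2643 ± 494 (Basal), 2527 ± 404 (Early), 2262 ± 75.4 (Late) and 2080 ± 103 in Reactivated (normalized counts, SD, n = 3 each).

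**Figure D1:**
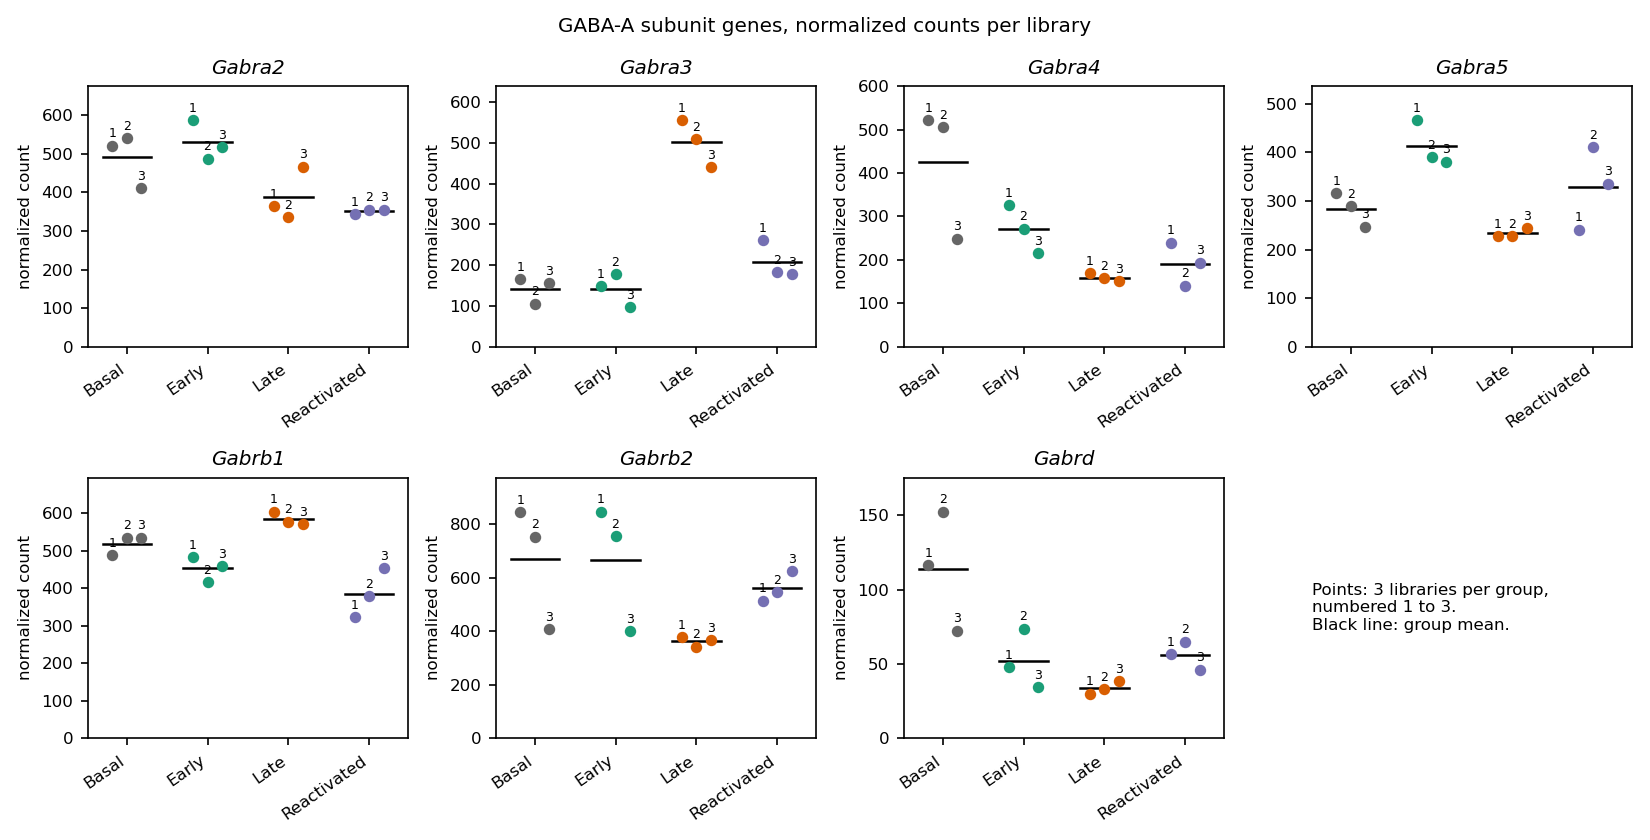
Normalized counts of the 7 subunit genes (y axis, from 0) in each of the 12 libraries by group (x axis), with points numbered by replicate and a black line at the mean of 3 libraries. Gabra3 lies at 440 to 556 in Late and at 262 or below in all other libraries, and Basal 3 lies well below Basal 1 and Basal 2 for Gabra4, Gabrb2 and Gabrd.

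The promoters of 3 of these genes are shown first. Gabra3 was taken because it changed most among the 7. Gabra2 and Gabra4, both in a subunit cluster on chromosome 5, were taken as lower in Late against Early and in Reactivated against Basal. Gabrb1, next to Gabra4 in that cluster, was also lower in Reactivated against Basal (-0.43) but higher in Late against Early (0.37). Several of these calls ended when a single library was left out, as given below. The sequences are from RefSeq (GRCm38.p6), which holds windows for 6 of the 7 genes, read 5′ to 3′ on the strand of the gene and cut to stretches before the start site with no annotated exon. Capitals mark a match on either strand to the GC box GGGCGG or to TATAAA.
Gabra3, chrX:72656920-72657169, minus strand: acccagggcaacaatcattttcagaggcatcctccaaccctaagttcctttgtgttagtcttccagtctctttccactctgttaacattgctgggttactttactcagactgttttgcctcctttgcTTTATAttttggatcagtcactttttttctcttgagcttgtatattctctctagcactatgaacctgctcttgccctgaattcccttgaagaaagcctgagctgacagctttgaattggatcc
Gabra2, chr5:71095850-71096099, minus strand: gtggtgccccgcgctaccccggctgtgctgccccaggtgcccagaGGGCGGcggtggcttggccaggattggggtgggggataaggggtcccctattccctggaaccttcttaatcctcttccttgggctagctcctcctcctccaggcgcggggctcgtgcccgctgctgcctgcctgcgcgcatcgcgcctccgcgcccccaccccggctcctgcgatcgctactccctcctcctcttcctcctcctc
Gabra4, chr5:71658364-71658558, minus strand: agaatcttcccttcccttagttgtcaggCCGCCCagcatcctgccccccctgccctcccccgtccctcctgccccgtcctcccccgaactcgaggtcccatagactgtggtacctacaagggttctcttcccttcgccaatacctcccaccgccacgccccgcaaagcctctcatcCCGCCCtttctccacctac
The Gabra3 stretch holds TATAAA on the opposite strand at positions -123 to -118 from the annotated start, while Gabra2 holds 1 GC box (-205 to -200) and Gabra4 holds 2 (-222 to -217 and -74 to -69). Of 32851 windows of all genes, 32.7% hold GGGCGG and 12.4% hold TATAAA. The letters TGACGTCA (the CREB element, in 1.55% of windows), its core TGACG (17.8%) and the AP-1 site TGANTCA (6.75%) were searched on both strands and matched in none of the 6 genes. The EGR site GCGNGGGCG (4.70% of windows) matched once, in Gabrb2, where it overlaps a GC box, and Gabrb2 also holds TATAAA at -30 to -25. These matches describe letters in a window and were not set against the expression values.

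Gabra3, which encodes an alpha subunit of benzodiazepine-sensitive receptors, had normalized counts of 166, 105 and 156 (Basal) and 149, 178 and 96.9 (Early). It had 556, 509 and 440 (Late) and 262, 183 and 178 (Reactivated). All 3 Late libraries lay above all others, and every Reactivated library lay above every Basal library. Gabra3 rose 3.52-fold in Late against Basal (log2 fold change 1.81 ± 0.24, edgeR adjusted p 2.64e-05) and 3.54-fold in Late against Early (1.82 ± 0.23, adjusted p 3.39e-05). It was 2.43-fold lower in Reactivated than in Late (-1.28 ± 0.23, adjusted p 0.00102). In Reactivated the difference was 0.53 ± 0.24 from Basal (adjusted p 0.0857) and 0.54 ± 0.23 from Early (adjusted p 0.0998), and neither passed. Early and Basal differed by -0.01 ± 0.24. Of the alternatives, only the Rn45s covariate ended a Gabra3 call, in Late against Basal (1.41, adjusted p 0.306) and in Late against Early (1.42, adjusted p 0.438). Scaling to the same total, which moved the median of all genes to -0.87 and -0.78 in these comparisons, left the rises at 0.96 (adjusted p 0.00323) and 1.03 (0.00223). The genes with the pattern most like that of Gabra3 over the 12 libraries, by root mean square difference of centred log2 CPM (counts scaled to one library total), were Bloc1s6 (0.212) and St8sia1 (0.233), against a median of 0.841 over 10216 candidate genes.

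Gabrd, the delta subunit of extrasynaptic receptors, had normalized counts of 117, 153 and 72.5 (Basal), 48.0, 73.8 and 34.2 (Early), 30.02, 33.0 and 38.3 (Late), and 56.4, 65.1 and 46.2 (Reactivated). The Late and Reactivated libraries all lay below Basal, while Early 2 (73.8) overlapped Basal 3 (72.5). Gabrd fell 3.32-fold in Late against Basal (-1.73 ± 0.33, edgeR adjusted p 0.000623) and 2.02-fold in Reactivated against Basal (-1.01 ± 0.31, adjusted p 0.0198). It fell 2.16-fold in Early against Basal (-1.11 ± 0.31, adjusted p 0.0495), a call next to the threshold. Without Basal 2 the Early difference was -0.84 (adjusted p 0.264), without Basal 1 it was -1.09 (0.134), without Early 1 -1.05 (0.169), without Early 3 -0.87 (0.176), and leaving out any Late library or Reactivated 3 also ended the call, at adjusted p 0.0530 to 0.0732. Scaling to the same total (adjusted p 0.0738), limma-voom (0.0690) and a fit of Basal and Early alone (0.109) ended it too. The Reactivated call ended without Basal 1 (-1.01, adjusted p 0.0539), Basal 2 (-0.74, 0.115) or Reactivated 3 (-0.89, 0.0651). The Late call ended only with the Rn45s covariate (-0.00, adjusted p 0.999), and with it the Reactivated difference was 0.00. Late, Early and Reactivated did not differ from each other past the threshold for Gabrd, at -0.63 ± 0.34 for Late against Early (adjusted p 0.148), 0.72 ± 0.34 for Reactivated against Late (0.146) and 0.09 ± 0.32 for Reactivated against Early (0.856). Late against Early passed without Basal 3 and Early 3 together (-0.85, adjusted p 0.0251) and under same-total scaling (-1.39, 0.00561). Reactivated against Late passed under same-total scaling (1.06, adjusted p 0.0468) and with Basal and Early paired (0.72, 0.0370). Within each same-numbered pair Gabrd was lower in Early than in Basal, and the paired fit gave -1.13 (adjusted p 0.00566).

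Gabra4, the alpha subunit that often pairs with delta, had normalized counts of 522, 505 and 249 (Basal), 327, 272 and 215 (Early), 169, 157 and 150 (Late), and 240, 141 and 194 (Reactivated). Basal 3 was less than Early 1 and Early 2 but above every Late and Reactivated library. Gabra4 fell 2.66-fold in Late against Basal (-1.41 ± 0.27, edgeR adjusted p 0.000563) and 2.22-fold in Reactivated against Basal (-1.15 ± 0.26, adjusted p 0.00368), and both calls ended only with the Rn45s covariate (-0.80, adjusted p 0.667, and -0.78, adjusted p 0.422). It fell 1.71-fold in Late against Early (-0.77 ± 0.26, adjusted p 0.0299), a call that ended without Early 1 (-0.62, adjusted p 0.121), Early 2 (-0.77, 0.0700), Late 1 (-0.82, 0.0628), Late 2 (-0.76, 0.0805) or Late 3 (-0.73, 0.0837), and under limma-voom (adjusted p 0.0553). Early against Basal did not pass (-0.64 ± 0.26, adjusted p 0.192), but without Basal 3 it did (-0.92, adjusted p 0.0141), and likewise without Basal 3 and Early 3 together (-0.77, adjusted p 0.0470). Early was the lower library in each same-numbered pair, and with Basal and Early paired the difference was -0.60 (adjusted p 0.0679). Reactivated against Early was -0.51 ± 0.26 (adjusted p 0.160) and passed without Basal 3 and Early 3 together (-0.67, adjusted p 0.0184) and under same-total scaling (-0.93, 0.0246). Reactivated against Late was 0.26 ± 0.27 (adjusted p 0.533). Kctd4 (0.129) and Glcci1 (0.164) had the pattern nearest to Gabra4, and Kcnk1 (0.237) and Cemip (0.250) that nearest to Gabrd. Among the 7 genes the nearest to Gabrd was Gabra4 (0.416).

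Markers of dentate granule cells were lower in the same groups. Over 14 genes, the summed level of Basal was 14214 ± 2669, with a range of 11607 to 16942. Early stood at 3810 ± 135 (3700 to 3960), Late at 4647 ± 921 (3660 to 5483) and Reactivated at 3556 ± 1574 (2527 to 5368). Prox1, the transcription factor that defines granule cells, fell from 1636 ± 196 in Basal to 290 ± 22.0 (Early), 120 ± 9.52 (Late) and 252 ± 180 (Reactivated), with edgeR adjusted p of 0.000386, 1.95e-06 and 8.06e-05. Of the 14 granule cell markers, 12 fell in Early, 11 fell in Late and 12 fell in Reactivated, each against Basal, and only Tdo2 was at 0 in any library. In Late against Early 2 of them rose and 7 fell, with a median log2 fold change of -0.56, although the mean sum was higher in Late. Summed markers of CA1 pyramidal cells, over 9 genes, were 1067 ± 203 (Basal), 2397 ± 106 (Early), 3798 ± 353 (Late) and 3634 ± 383 (Reactivated). Those of CA3 and CA2, also over 9 genes, were 1271 ± 168, 3072 ± 812, 4265 ± 404 and 2760 ± 223 in the same order. Of these CA3 and CA2 genes, 2 rose and 3 fell in Late against Early, with a median log2 fold change of -0.05. The part of these cell types in the values of Gabrd, Gabra4 and the other subunit genes was not tested.

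**Figure D2:**
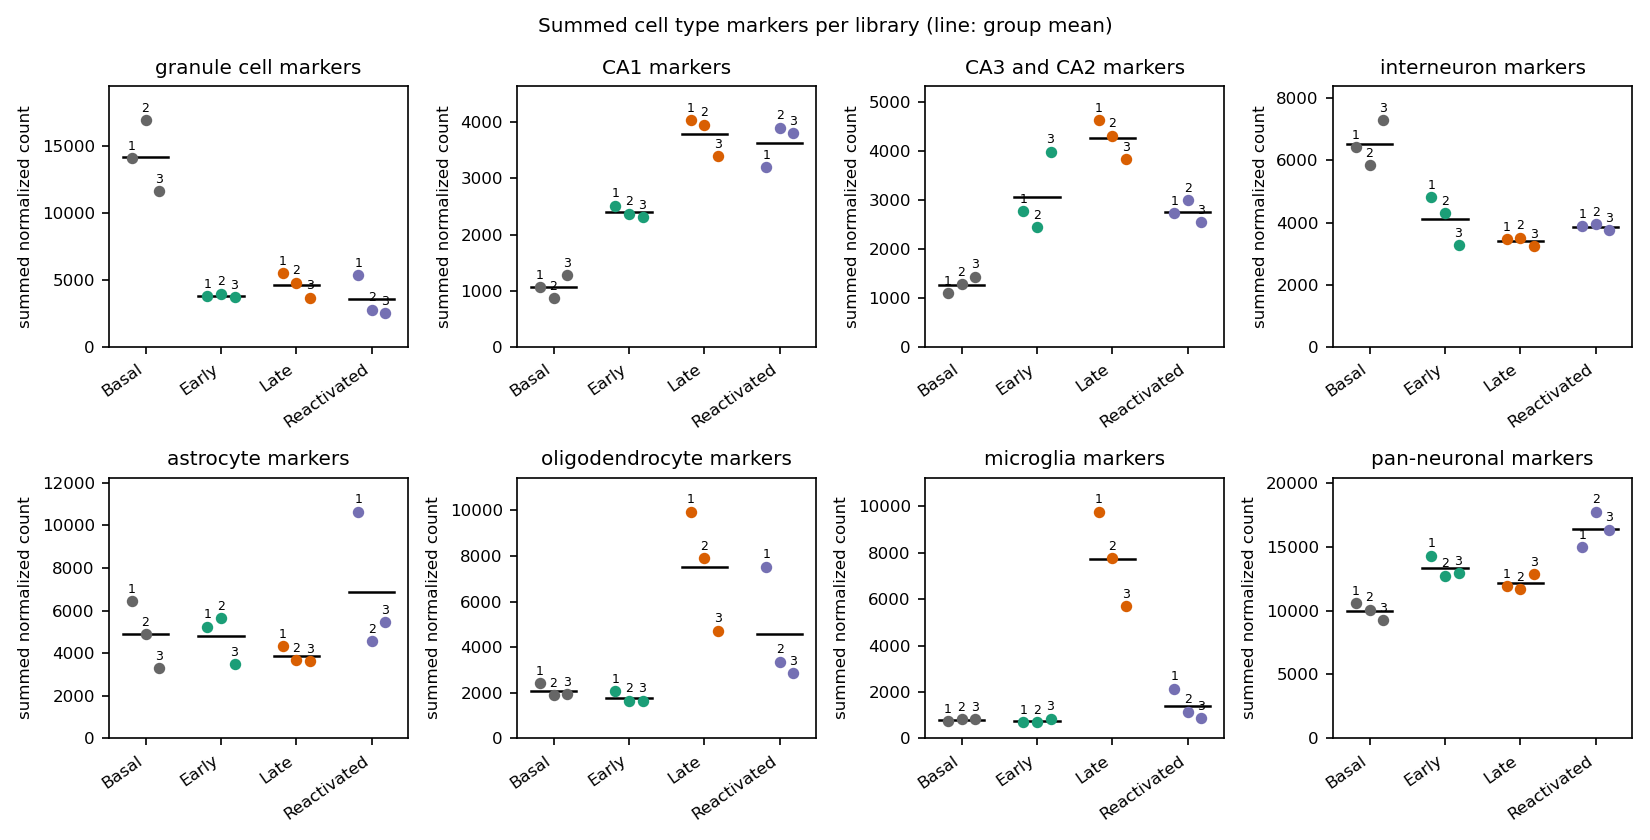
Summed normalized counts of cell type marker lists (y axis, from 0) in each library by group (x axis), with points numbered by replicate and a line at the group mean. Granule cell markers are at 11607 to 16942 in Basal and at or below 5483 elsewhere, while CA1 markers are lowest in Basal.

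The NeuN label was checked with 5 neuronal genes, whose summed level was 9973 ± 678 (Basal), 13343 ± 861 (Early), 12163 ± 631 (Late) and 16383 ± 1386 (Reactivated). Summed interneuron markers, over 14 genes, were 6524 ± 734 (Basal), 4129 ± 788 (Early), 3409 ± 145 (Late) and 3858 ± 98.7 (Reactivated). Against Basal, 1 of them rose and 5 fell in Early, 0 rose and 7 fell in Late, and 1 rose and 8 fell in Reactivated. The gene that rose in Early was Npy (1.56, edgeR adjusted p 0.00607). Summed microglia markers, over 10 genes, were 794 ± 55.1 (Basal), 744 ± 82.1 (Early), 7748 ± 2045 (Late) and 1386 ± 669 (Reactivated). In Late that sum came mainly from Cx3cr1 (3841 ± 1404) and Itgam (3820 ± 645), while Csf1r and P2ry12 fell in Late against Basal to 14.1 ± 1.96 and 14.8 ± 5.23. Oligodendrocyte markers, over 8 genes, summed to 2084 ± 292, 1785 ± 237, 7524 ± 2633 and 4582 ± 2565. Within that list, Mog, Mag, Cnp and Ermn fell in Late against Basal. Summed astrocyte markers were 4883 ± 1578, 4791 ± 1150, 3871 ± 393 and 6888 ± 3296 over 9 genes, precursor markers of oligodendrocytes 86.3 ± 31.3, 70.1 ± 13.4, 36.1 ± 5.37 and 174 ± 90.2 over 3, and blood vessel markers 250 ± 241, 79.7 ± 15.3, 61.0 ± 7.72 and 140 ± 71.1 over 8. Of these markers Tmem119, C1qa, Opalin, Gjb6, Cdh5, Cldn5 and Vtn were at 0 in some libraries, Cdh5 in 4 and each other one in 1 or 2. The part of these cells in the subunit values was not tested.

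Gabra5, the alpha subunit of tonic receptors in pyramidal cells, had normalized counts of 316, 290 and 247 (Basal), 467, 390 and 381 (Early), 228, 227 and 245 (Late), and 241, 410 and 336 (Reactivated). Every Early library lay above every Basal and Late library, and Reactivated spread across both ranges. Gabra5 was 1.76-fold lower in Late than in Early (-0.82 ± 0.18, edgeR adjusted p 0.00236), a call that the Rn45s covariate ended with a change of sign (0.20, adjusted p 0.884). Early against Basal was 0.54 ± 0.18 (adjusted p 0.100) and did not pass, although it did without Reactivated 1 (0.54, adjusted p 0.0330), a library of neither group, and with the Rn45s covariate (0.59, 0.0162). Reactivated against Late was 0.50 ± 0.18 (adjusted p 0.0618) and passed without Reactivated 1 (0.67, adjusted p 0.00735), under upper quartile (0.62, 0.0257) or same-total scaling (0.86, 0.0128), at a minimum count of 50 (0.52, 0.0480) and with Basal and Early paired (0.50, 0.0434). Late against Basal (-0.28 ± 0.18), Reactivated against Basal (0.22 ± 0.18) and Reactivated against Early (-0.32 ± 0.18) did not pass, at adjusted p 0.217, 0.348 and 0.194. Late against Basal did pass under upper quartile (-0.51, adjusted p 0.0343) and same-total scaling (-1.13, 0.000700), and Reactivated against Early under same-total scaling (-0.71, 0.0297), where Reactivated against Basal changed sign (-0.26). Kpnb1 (0.120) and Jak1 (0.128) had the nearest pattern. In the annotation 148 exonic bases of Gabra5 are shared with the antisense gene Gm9962, and since the strand setting of the counting is not given in the sources used here, reads from those bases cannot be told apart.

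Gabra2, an alpha subunit of synaptic receptors, had normalized counts of 521, 541 and 410 (Basal), 588, 487 and 518 (Early), 365, 336 and 467 (Late), and 344, 355 and 355 (Reactivated). The Reactivated libraries lay close to each other and below every Basal and Early library. Gabra2 fell 1.39-fold in Reactivated against Basal (-0.48 ± 0.16, edgeR adjusted p 0.0255), 1.51-fold in Reactivated against Early (-0.59 ± 0.16, adjusted p 0.0141) and 1.36-fold in Late against Early (-0.44 ± 0.16, adjusted p 0.0321). The Reactivated against Basal call ended without Basal 1, Basal 2 or any 1 Reactivated library, at -0.40 to -0.49 and adjusted p 0.0507 to 0.102. Reactivated against Early ended without Early 1 (-0.51, adjusted p 0.0673), and Late against Early without Early 1 (-0.37, 0.124), Late 1 (-0.40, 0.116) or Late 2 (-0.35, 0.144). Late against Basal did not pass (-0.33 ± 0.16, adjusted p 0.0927) but did without Basal 3 (-0.45, adjusted p 0.0280), without Basal 3 and Early 3 together (-0.44, 0.0271) and without Late 3 (-0.48, 0.0281). It also passed under upper quartile (-0.56, adjusted p 0.0116) and same-total scaling (-1.17, 0.000249) and at a minimum count of 50 (-0.39, 0.0477). With the Rn45s covariate all 3 calls ended, at -0.02 for Reactivated against Basal, -0.18 for Reactivated against Early and 0.29, with a change of sign, for Late against Early. Early against Basal was 0.11 ± 0.15 and Reactivated against Late -0.15 ± 0.16. Zfp354a (0.101) and Epha4 (0.118) had the nearest pattern.

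Gabrb2, a beta subunit found in a large share of brain GABA-A receptors, had normalized counts of 845, 753 and 406 (Basal), 847, 753 and 400 (Early), 377, 342 and 367 (Late), and 514, 546 and 623 (Reactivated). Late was the lowest of the groups and tight, and Basal 3 and Early 3 were the libraries nearest to it. Gabrb2 fell 1.84-fold in Late against both Basal (-0.88 ± 0.27, edgeR adjusted p 0.0145) and Early (-0.88 ± 0.27, adjusted p 0.0167). The call against Basal ended without Basal 1 (-0.71, adjusted p 0.0650), Basal 2 (-0.78, 0.0545) or Late 2 (-0.84, 0.0512), and the call against Early without Early 1 (-0.67, 0.0876), Early 2 (-0.78, 0.0643) or Late 2 (-0.84, 0.0599). With the Rn45s covariate both changed sign and did not pass (0.91, adjusted p 0.516, and 0.83, adjusted p 0.649). Reactivated lay above Late in every library pair, by 0.63 ± 0.27 (adjusted p 0.109), and passed without Basal 3 (0.63, adjusted p 0.0456) and without Basal 3 and Early 3 together (0.62, adjusted p 0.00167). It also passed under same-total scaling (0.99, adjusted p 0.0270), in a fit of those groups alone (0.68, 0.00544) and with Basal and Early paired (0.63, 0.00112). Without Basal 3 and Early 3 together, Reactivated was also lower than Basal (-0.51, adjusted p 0.00504) and Early (-0.52, adjusted p 0.00622). That fit keeps only the closely alike replicates 1 and 2 of Basal and Early. With all libraries the difference was -0.25 ± 0.26 in each (adjusted p 0.485 and 0.510). Fam171b (0.125) and Nr3c1 (0.145) had the nearest pattern.

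Gabrb1, the other beta subunit measured here, had normalized counts of 487, 534 and 535 (Basal), 483, 415 and 459 (Early), 604, 577 and 570 (Late), and 322, 378 and 453 (Reactivated). Every Late library lay above every other library, and every Reactivated library lay below every Basal one. Gabrb1 was 1.51-fold lower in Reactivated than in Late (-0.60 ± 0.14, edgeR adjusted p 0.00666), which scaling to the same total left at -0.23 (adjusted p 0.337). It was 1.35-fold lower in Reactivated than in Basal (-0.43 ± 0.14, adjusted p 0.0254), a call that ended without Basal 2 (-0.41, adjusted p 0.0748), Reactivated 1 (-0.32, 0.0832) or Reactivated 2 (-0.41, 0.0634), and in a fit of those groups alone (adjusted p 0.0707). In Late against Early it was higher at 0.37 ± 0.14 (adjusted p 0.0451), but scaling to the same total turned this to -0.39 (adjusted p 0.0685). That call also ended without Basal 1, Basal 2, Reactivated 2 or any 1 Early or Late library, at adjusted p 0.0506 to 0.161, and with upper quartile scaling (0.15, adjusted p 0.416), no filter (0.37, 0.0827), a minimum count of 50 (0.32, 0.0556) or the replicate number as a block in all groups (0.37, 0.0521). Late against Basal was 0.17 ± 0.14 (adjusted p 0.327) and turned to -0.68 (adjusted p 0.00364) under same-total scaling and was -0.06 (adjusted p 0.740) with upper quartile scaling. Early against Basal was -0.20 ± 0.14 and Reactivated against Early -0.23 ± 0.14, the latter passing under same-total scaling (-0.62, adjusted p 0.0169). Map3k3 (0.118) and Wdr34 (0.119) had the nearest pattern. Gabrb1 and Gabra4 start head to head on opposite strands and share 46 exonic bases in the annotation, so reads from those bases cannot be told apart.

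**Figure D3:**
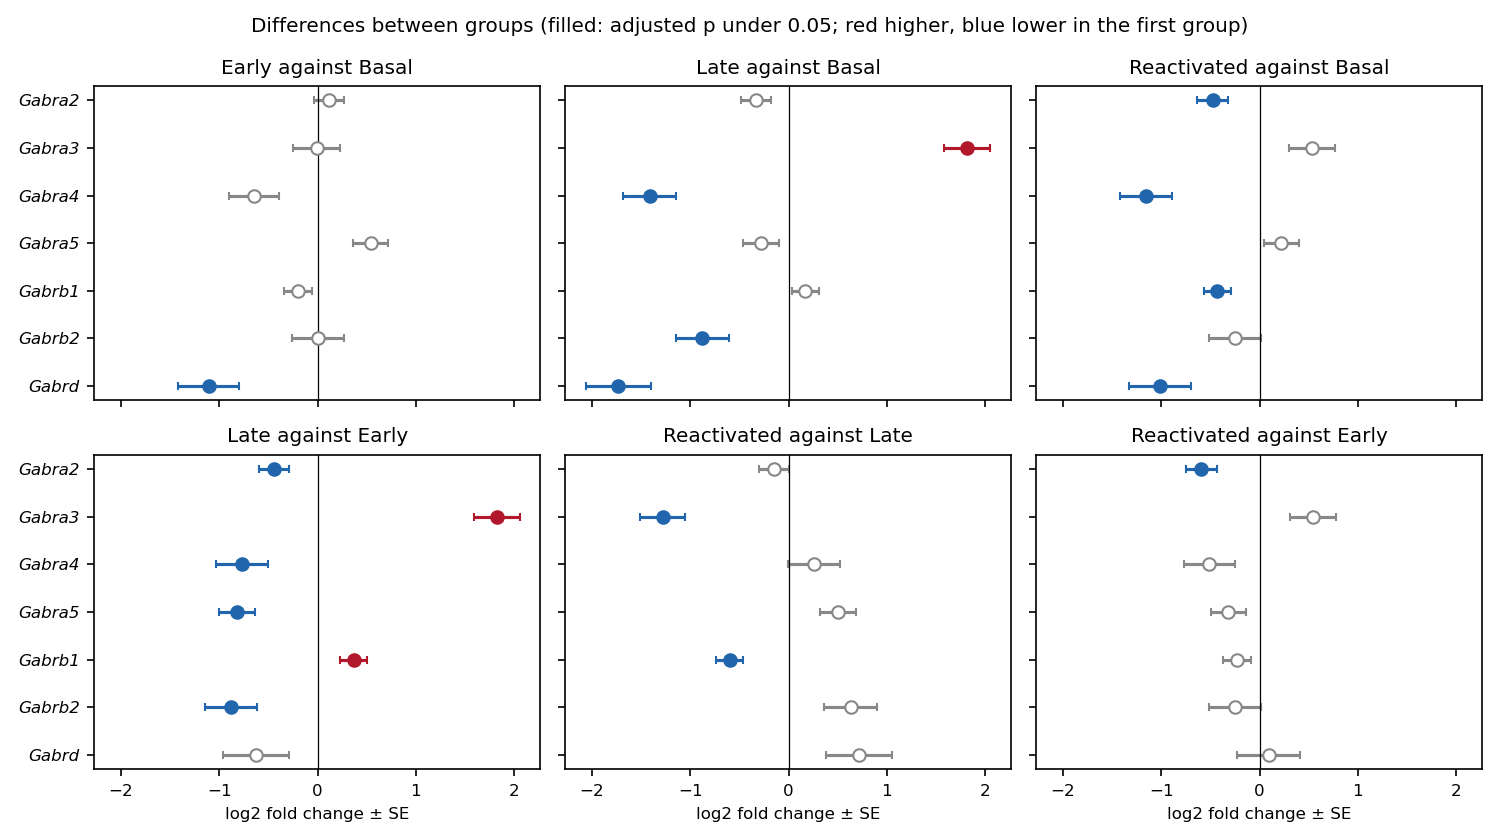
Log2 fold changes ± SE of the 7 genes (x axis) in the 6 comparisons of groups, 1 panel each, from edgeR over 15668 genes, with filled points for adjusted p under 0.05, red where higher and blue where lower in the first group named. Gabra3 has the largest rises, at 1.81 in Late against Basal and 1.82 in Late against Early, and Gabrd the largest fall, at -1.73.

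Counted by comparison, 1 of 7 genes passed in Early against Basal (Gabrd, lower), where 6.03% of all genes passed (3.36% higher and 2.66% lower), and the libraries of 2 of 7 did not overlap, where 23.4% of all genes did not. In Late against Basal 4 passed, 1 higher and 3 lower, with 49.1% of all genes passing (25.4% higher and 23.7% lower), and 6 did not overlap against 62.5% of all genes. In Reactivated against Basal 4 passed, all lower, with 39.4% of all genes passing (20.6% higher and 18.8% lower), and 5 did not overlap against 45.8%. Late against Early gave 6, 2 higher and 4 lower, beside 42.3% of all genes (22.0% higher and 20.3% lower), and 6 without overlap beside 59.9%. Reactivated against Late gave 2, both lower, beside 22.6% (10.3% higher and 12.3% lower), and 4 without overlap beside 39.7%. Reactivated against Early gave 1, lower, beside 26.2% (13.5% higher and 12.7% lower), and 1 without overlap beside 39.1%. The median log2 fold change of the 7 was -0.01, -0.33, -0.43, -0.63, 0.26 and -0.25 in that order, and that of all genes 0.01, -0.03, 0.02, -0.03, 0.03 and 0.03. Comparisons with a group in common share its libraries, so their counts stand side by side only.

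Within each library the mix of the 7 transcripts does not depend on how libraries are scaled. Gabra3 made up 5.58% ± 1.92 of their summed count in Basal, 5.56% ± 1.22 (Early), 22.2% ± 2.48 (Late) and 10.1% ± 2.77 (Reactivated), each as mean ± SD of 3 libraries. All Late libraries (19.3% to 23.9%) were above all Reactivated ones (8.13% to 13.2%), which were above all Basal and Early ones (3.66% to 7.50%). Gabra4 went from 15.7% ± 3.20 in Basal to 10.7% ± 0.505 (Early), 7.03% ± 0.367 (Late) and 9.25% ± 2.69 (Reactivated), and Gabrd from 4.24% ± 0.943 to 2.05% ± 0.712, 1.49% ± 0.197 and 2.70% ± 0.526. Gabra5 was 10.9% ± 0.943 and 10.3% ± 0.484 in Basal and Late but 16.4% ± 1.50 and 15.8% ± 3.79 in Early and Reactivated, and the latter pair did not overlap the former. Gabrb2 was 24.7% ± 4.59 (Basal), 25.8% ± 5.89 (Early), 16.0% ± 0.271 (Late) and 26.9% ± 1.39 (Reactivated), with all Late libraries the lowest. Gabrb1 was 20.2% ± 4.91, 18.2% ± 3.13, 25.8% ± 0.732 and 18.4% ± 2.24, and Gabra2 18.7% ± 1.13, 21.3% ± 2.97, 17.2% ± 2.88 and 16.9% ± 0.586. Of the summed count of both beta genes, Gabrb1 held 61.7% ± 0.994 (Late), against 45.0% ± 10.6 (Basal), 41.8% ± 10.1 (Early) and 40.5% ± 1.81 (Reactivated). That share is not corrected for the greater exonic length of Gabrb1. Per exonic kilobase Gabrb1 held 42.6% ± 1.03 (Late), 27.7% ± 8.81 (Basal), 25.2% ± 8.09 (Early) and 23.9% ± 1.36 (Reactivated). On that scale Gabrb2 was the larger of both in every group, at 57.4% ± 1.03 in Late. The shares did not overlap in 23 of 42 comparisons of a gene between 2 groups. The 7 shares of a library add up to 100%, so a rise of Gabra3 by itself lowers the others. The 42 comparisons are therefore not independent, and there is no such count over all genes to set beside them. No share can pass a threshold of 0.05, because an exact two-sided permutation test of 3 against 3 libraries gives a p of 0.1 at the smallest, 0.183 after adjustment over the 42.

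**Figure D4:**
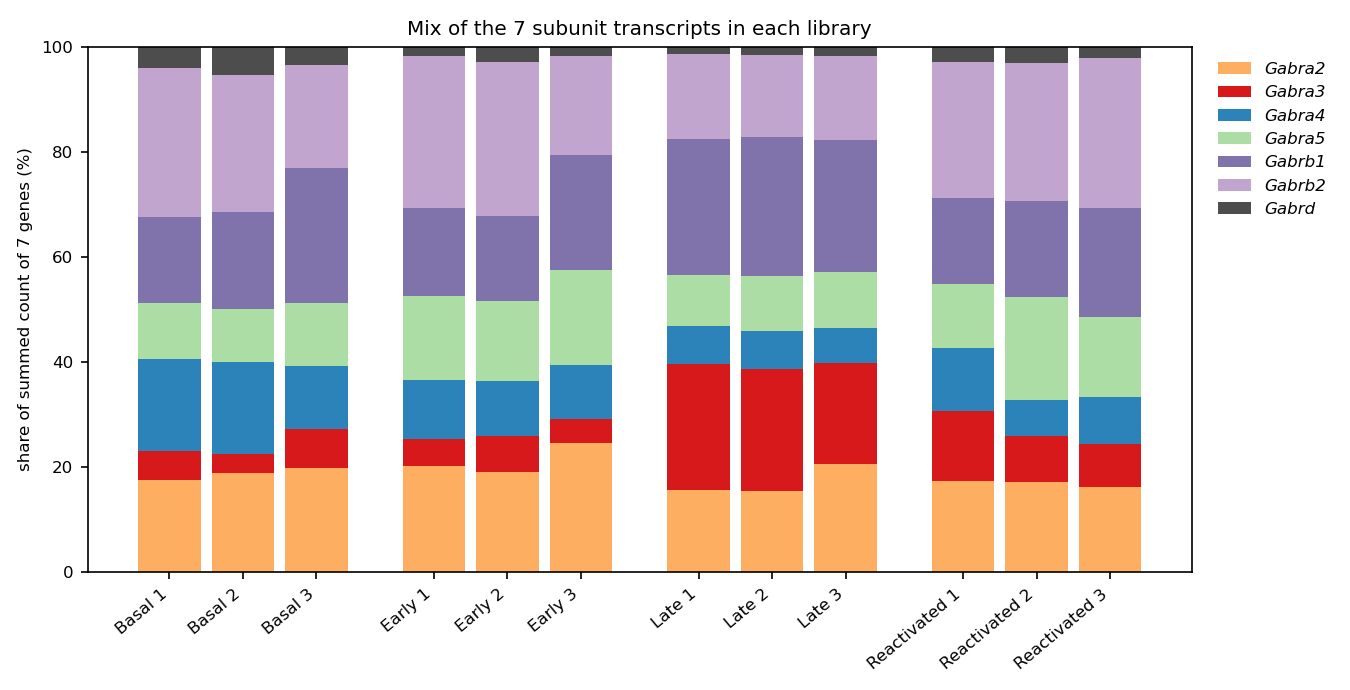
Share of each of the 7 genes in their summed count (y axis, %) in each of the 12 libraries (x axis), as stacked bars from 0 to 100%. The Gabra3 band is widest in the 3 Late libraries, at 19.3% to 23.9%, and the Gabrb2 band is narrowest there.

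Levels were compared between genes only per exonic length. In Basal the order of normalized counts per exonic kilobase, from the top, was Gabrb2 (105 ± 36.4), Gabra5 (95.5 ± 11.7), Gabra4 (69.9 ± 25.1), Gabra2 (64.2 ± 9.19), Gabrd (39.6 ± 14.0), Gabrb1 (37.5 ± 1.98) and Gabra3 (36.3 ± 8.23). Only Gabra2 and Gabrd were neighbours in that order whose libraries did not overlap. In Early Gabra5 was first (139 ± 15.8), before Gabrb2, Gabra2, Gabra4, Gabra3, Gabrb1 and Gabrd (18.1 ± 6.99), with no overlap between Gabra2 and Gabra4 or between Gabrb1 and Gabrd. In Late Gabra3, last in Basal, was first (128 ± 14.9), before Gabra5 (78.5 ± 3.30), Gabrb2, Gabra2, Gabrb1, Gabra4 and Gabrd (11.7 ± 1.45), and only Gabrb2 and Gabra2 overlapped. In Reactivated the order was Gabra5 (111 ± 28.5), Gabrb2, Gabra3 (52.9 ± 12.0), Gabra2, Gabra4, Gabrb1 and Gabrd (19.4 ± 3.30). There Gabrb2 and Gabra3, Gabra2 and Gabra4, and Gabrb1 and Gabrd did not overlap. Exonic lengths are from GENCODE M21 on a later build than that of the files, and whether reads in introns were counted is not given in the sources used here.

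**Figure D5:**
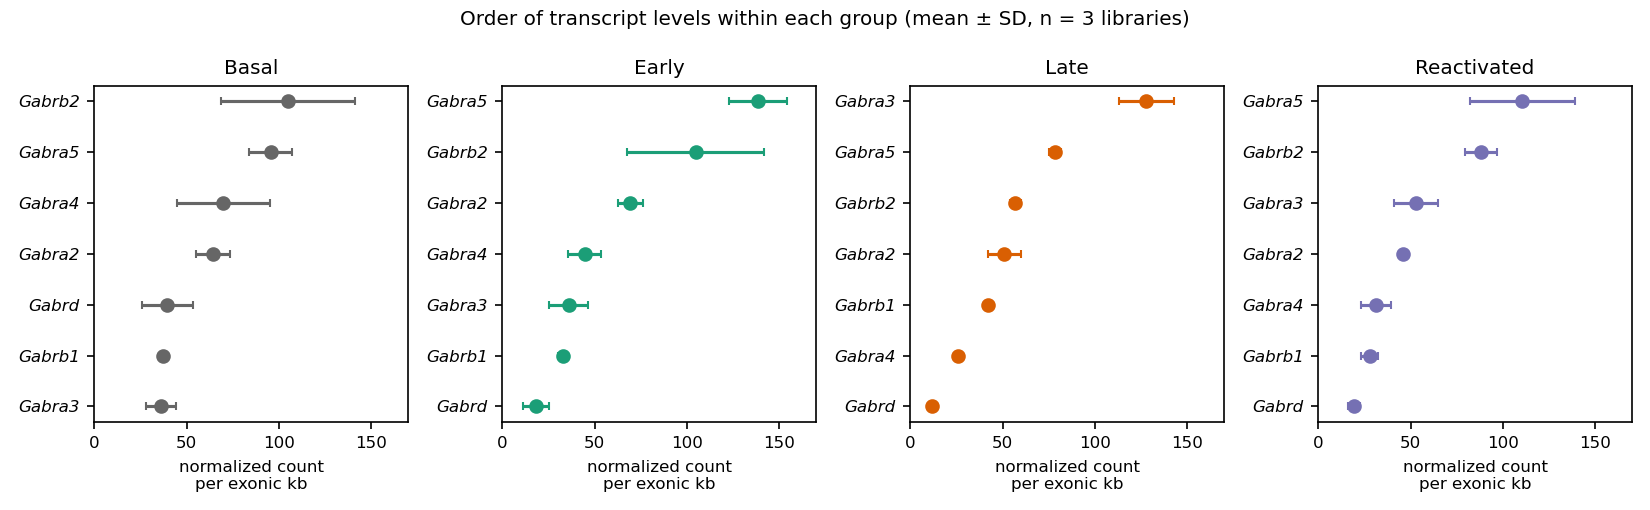
Normalized counts per exonic kilobase (x axis, from 0; mean ± SD of 3 libraries) of the 7 genes in the order of their level, 1 panel per group. Gabra3 is at the bottom in Basal (36.3) and at the top in Late (128).

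Among the other 12 GABA-A subunit genes in the table, 7 passed the filter on low counts. Of these 7, none passed in Early against Basal, 1 rose and 4 fell in Late against Basal, and 2 fell in Reactivated against Basal, with a median log2 fold change of -0.12, -0.83 and -0.46. In Late against Early 1 rose and 3 fell, in Reactivated against Late 1 rose and 1 fell, and in Reactivated against Early 1 fell. Gabrq, which encodes the theta subunit and is the next gene to Gabra3 on the X chromosome in the annotation, rose 2.78-fold in Late against Basal (61.6 ± 18.7 against 22.9 ± 11.1 normalized counts, edgeR adjusted p 0.00948) and 2.75-fold against Early (adjusted p 0.0106). It was 3.25-fold lower in Reactivated than in Late (adjusted p 0.00982).

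All 20 genes for anchoring, assembly and trafficking of GABA-A receptors were tested. In Early against Basal 2 rose and 1 fell, in Late against Basal 8 rose and 6 fell, and in Reactivated against Basal 9 rose and 2 fell, with medians of 0.16, 0.25 and 0.24. In Late against Early 6 rose and 4 fell, in Reactivated against Late 3 rose and 4 fell, and in Reactivated against Early 5 rose and 1 fell. Lhfpl4, a transmembrane partner of synaptic receptors, was 607 ± 30.2 (Basal), 1727 ± 114 (Late) and 1278 ± 208 (Reactivated), with edgeR adjusted p of 2.65e-06 and 0.000161 against Basal. The PRIP proteins, which take part in receptor trafficking, are encoded by Plcl1 and Plcl2, and the former fell in Early, Late and Reactivated against Basal (-0.99, -1.20 and -1.13) while the latter rose (0.68, 1.59 and 0.86). Iqsec3, a guanine exchange factor of inhibitory synapses that binds gephyrin, rose from 1567 ± 194 in Basal to 4172 ± 532 in Late (adjusted p 6.21e-06). Zdhhc3, a palmitoyl transferase, rose in Late against Early and was lower in Reactivated than in Late (0.85 and -0.85). Nsf, which acts in membrane fusion and receptor recycling, rose in Reactivated against Late (0.68, adjusted p 0.00198), as did Gabarap, a trafficking protein of these receptors (1.37, adjusted p 0.00235). Gabarapl1, of the same family, rose in Reactivated against Basal (1.13) and Early (0.69), and Ubqln1, which slows subunit degradation, rose in Reactivated against Early (0.71).

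Of 9 genes for GABA synthesis, transport and breakdown, 7 were tested. In Early, Late and Reactivated against Basal, 0, 1 and 1 rose and 2, 3 and 4 fell, with medians of -0.65, -0.43 and -0.53. In Late against Early 2 rose and 1 fell, in Reactivated against Late 2 rose and 1 fell, and in Reactivated against Early 1 rose and 1 fell. Aldh5a1, which encodes an enzyme of GABA breakdown, fell from 414 ± 30.6 in Basal to 239 ± 18.1 (Early) and 133 ± 6.24 (Late), and was 286 ± 18.6 in Reactivated (edgeR adjusted p 0.00178, 6.54e-07 and 0.00576 against Basal). Slc6a11, a GABA transporter of glia, was 109 ± 7.08 (Basal), 67.4 ± 5.38 (Early), 273 ± 48.1 (Late) and 104 ± 30.9 (Reactivated), and rose in Late against Basal (adjusted p 0.000179) and Early (8.70e-06). Slc32a1, the vesicular transporter of inhibitory neurons, rose in Late against Early (0.86, adjusted p 0.00853). Abat, the GABA transaminase, rose in Reactivated against Basal, Late and Early (0.58, 0.60 and 0.53). Gad2, a GABA-synthesizing enzyme, fell in Reactivated against Early (-0.63, adjusted p 0.0281).

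The response to GABA-A channels depends on the chloride gradient, and all 8 genes for chloride transport were tested. In Early against Basal 1 rose, in Late against Basal 4 rose and 4 fell, and in Reactivated against Basal 4 rose and 1 fell, with medians of 0.00, 0.07 and 0.05. In Late against Early 4 rose and 3 fell, and in Reactivated against Late and against Early 2 rose and 2 fell. Slc12a5, the chloride extruder KCC2 of mature neurons, was 2643 ± 133 (Basal), 2495 ± 163 (Early), 4615 ± 399 (Late) and 3625 ± 59.2 (Reactivated). It rose in Late against Early (0.89, edgeR adjusted p 5.33e-05) and in Reactivated against Early (0.54, 0.00628). Clcn2, a chloride channel, rose in Early, Late and Reactivated against Basal (0.76, 1.47 and 1.21). Wnk3, a kinase that regulates chloride cotransporters, was 309 ± 15.6 (Basal), 268 ± 25.7 (Early), 116 ± 16.4 (Late) and 188 ± 30.9 (Reactivated), and fell in Late against Basal (adjusted p 1.15e-05). The related kinase gene Wnk1 fell in Late against Early (-0.72) and rose in Reactivated against Late (0.37). Oxsr1 and Stk39, kinases downstream of the WNK kinases, rose in Late against Basal (0.93) and in Reactivated against Basal (0.65), respectively.

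All 6 genes of the GABA-B receptor and its KCTD partners were tested. None passed in Early against Basal, 1 rose and 1 fell in Late against Basal, and 1 rose in Reactivated against Basal, with medians of -0.00, 0.18 and 0.14. In Late against Early 3 rose and 1 fell, in Reactivated against Late 1 rose and 1 fell, and none passed in Reactivated against Early. Kctd12b, of the KCTD family, rose 8.19-fold in Late against Basal (284 ± 52.1 against 34.6 ± 2.62 normalized counts, edgeR adjusted p 6.06e-06) and was 4.71-fold lower in Reactivated than in Late (adjusted p 0.000144). Kctd12, which encodes an auxiliary GABA-B subunit, fell in Late against Basal (-0.53, adjusted p 0.0492), Kctd8 rose in Reactivated against Basal (0.97, adjusted p 0.0404), and Gabbr2, a core receptor subunit, rose in Late against Early (0.39, adjusted p 0.0257). Of 5 glycine receptor genes, 3 were tested, and 1 fell in Late against Basal, 1 rose and 1 fell in Late against Early, and 1 rose in Reactivated against Late. Glra2 rose in Late against Early (108 ± 22.0 against 53.2 ± 9.16, adjusted p 0.0236), and Glra4 was the gene that fell in Late and was higher in Reactivated, at a mean of 1.77 normalized counts in Late, 15.3 (Basal), 13.8 (Early) and 11.7 (Reactivated). The share of all genes that passed in these comparisons is the one given above, and the lists were not tested as sets.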

How the data were processed

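The deposited table holds whole-number counts per gene symbol, which the authors made from nuclear RNA reads of 12 libraries. Although the table is named as normalized, totals differ between libraries (4838166 to 11120255) and no whole number from 1 to 30 was missing in any library, so the values were treated as raw counts. Per the submitters' processing notes, Bowtie2 2.0, Cufflinks 2.2, DESeq2 and the mm9 build were used, with no role given. The sources used here give neither the counting tool nor its strand setting. Groups came from the titles.

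The 15668 of 24015 genes that reached a count of 10 in 3 or more libraries were tested with the quasi-likelihood test of edgeR 4.0.16 in R 4.3.3, TMM scaling and 4 group means over all 12 libraries, two-sided. Log2 CPM used a prior count of 2. P-values set the differences between groups against the spread between libraries called biological replicates. The design text does not tie these to separate pools of mice, and they may be partly technical. Since the alike replicates 1 and 2 of Basal, Early and Late are in the main fit too, its p-values may also be too small. Shares of the summed count were compared by exact permutation. Alternatives were other scalings, filters and tools (DESeq2 1.42.0, limma-voom in limma 3.58.1), the 2 groups alone, a replicate block and leaving out each library; leaving out Basal 3 and Early 3 together, the Rn45s covariate and a replicate block of Basal and Early alone were added after seeing the data. Deviations from the group means correlated at 0.143 to 0.484 in the 3 same-numbered pairs of Basal and Early and at -0.400 to 0.223 in their 6 other pairs. These numbers were therefore taken as pairing the libraries, from the data and not from a label. Deviations from a group mean cancel out within the group, so high same-numbered pairs by themselves make the other pairs lower. The highest value, 0.484, is that of Basal 3 with Early 3, the libraries with the highest Rn45s shares of their groups. The part of those shares in the correlation was not tested. However, Basal 1 with Early 2 (0.223) and Basal 2 with Early 1 (0.168) lay above Basal 2 with Early 2 (0.143). The pairing of numbers 1 and 2 is thus uncertain, and so are the p-values of the paired fit. In no other 2 groups did all 3 pairs exceed 0.1. The procedure was run on simulated independent libraries. These hold neither the alike replicates nor the Rn45s differences of the real ones, so their effect on the p-values was not tested. In 27 rows the symbol had become a date.

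All 7 members are named in every comparison, with up to 3 genes that passed from each of 6 related lists by smallest p, and 2 genes of nearest pattern with a mean of at least 50. Members and lists were chosen with earlier results of these data known. Some genes that this rule names are not reported here.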

Additional observations from a re-analysis of the deposited data

How the results depend on the processing

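Over the 42 log2 fold changes (7 genes, 6 comparisons), 445 of 504 values with 1 library left out and 467 of 546 under the other alternatives kept both their direction and their side of the threshold. With 1 library left out, the genes that passed numbered 0 to 2 in Early against Basal, 3 to 5 in Late against Basal, 1 to 4 in Reactivated against Basal, 2 to 6 in Late against Early, 2 to 3 in Reactivated against Late, 0 to 1 in Reactivated against Early and 6 to 7 over the 4 groups, and 23 to 28 shares did not overlap. In Early against Basal 0 passed under RLE and upper quartile scaling, same-total scaling, Rn45s left out, limma-voom and the fit of the 2 groups alone, and 2 without Basal 3 and Early 3 together or with the Rn45s covariate. Upper quartile scaling gave 6 in Late against Basal, and same-total scaling 7 there and 4 each in Reactivated against Late and against Early; it moved the median of all genes to -0.87 in Late against Basal, -0.46 in Reactivated against Basal, -0.78 in Late against Early, 0.38 in Reactivated against Late and -0.37 in Reactivated against Early. It also left 1401 of 10470 calls higher in Late against Basal, where TMM gave 3981 of 7687. Without Basal 3 and Early 3 together 7 passed in Late against Early and 3 in Reactivated against Early. The covariate gave 0 in Late against Basal, Reactivated against Basal, Late against Early and Reactivated against Early and 3 over the 4 groups, and left 205, 627, 94 and 0 calls among all genes in those comparisons, beside 7687, 6169, 6628 and 4108.

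Signs changed in 30 log2 fold changes outside leaving 1 library out, 12 of them at values within 0.1 of 0. Gabrb2, Early against Basal, was -0.000904 with RLE, -0.00589 with upper quartile, -0.0819 with same-total scaling, -0.0107 at a minimum count of 50, -0.00285 with DESeq2 and -0.00813 with the 2 groups alone. Upper quartile scaling gave -0.0593 for Gabrb1 in Late against Basal and -0.0171 for Gabrd in Reactivated against Early. Same-total scaling gave -0.68 for Gabrb1 in Late against Basal, -0.26 for Gabra5 in Reactivated against Basal, -0.39 for Gabrb1 in Late against Early, 0.19 for Gabra2 in Reactivated against Late and -0.33 for Gabrd in Reactivated against Early. Gabra3 in Early against Basal was 0.00480 with no filter and 0.29 without Basal 3 and Early 3 together, where Gabrd in Reactivated against Early was -0.15. The covariate gave 0.44, 0.79 and 0.91 for Gabra2, Gabra5 and Gabrb2 in Late against Basal, 0.80 and 0.00155 for Gabrb2 and Gabrd in Reactivated against Basal, 0.29, 0.20, 0.83 and 1.02 for Gabra2, Gabra5, Gabrb2 and Gabrd in Late against Early, -0.10 for Gabrb2 in Reactivated against Late, and 0.23 and 0.73 for Gabra5 and Gabrb2 in Reactivated against Early. With 1 library left out, Early against Basal ran from -0.00154 to 0.19 for Gabra2, -0.22 to 0.21 for Gabra3 and -0.26 to 0.27 for Gabrb2, Reactivated against Late from -0.24 to 0.00382 for Gabra2, and Reactivated against Early from -0.15 to 0.45 for Gabrd. The cause was not tested.

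Differences in share, in percentage points, also changed sign. Per exonic kilobase Gabrb1 in Reactivated against Early was -0.131. Within the alpha or beta genes Gabra2 in Reactivated against Late was 2.30, Gabra5 in Reactivated against Early 0.0354 and Gabrb1 there -1.24. Without Basal 3 and Early 3 together Gabra3 in Early against Basal was 1.41, Gabra5 in Reactivated against Early 0.149, Gabrb1 and Gabrb2 in Reactivated against Basal 0.944 and -0.360, and Gabrb2 in Reactivated against Early -2.30. With 1 library left out, Early against Basal ran from -0.985 to 0.936 for Gabra3, -3.96 to 0.730 for Gabrb1 and -1.46 to 4.51 for Gabrb2, Reactivated against Basal from -3.74 to 0.944 for Gabrb1 and -0.360 to 4.06 for Gabrb2, Reactivated against Early from -2.66 to 1.11 for Gabra5, -0.952 to 2.01 for Gabrb1 and -2.30 to 2.85 for Gabrb2, and Reactivated against Late from -1.17 to 1.39 for Gabra2.

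Same-numbered libraries of Basal and Early deviated together, at correlations of 0.143 to 0.484. Those of Late and Reactivated did so more weakly, at 0.0590 to 0.166 beside -0.119 to 0.0325 in their other pairs. Over all groups, 4 of 18 same-numbered pairs exceeded 0.1. With the replicate block of Basal and Early, 5 genes passed in Reactivated against Late, Gabra5, Gabrb2 and Gabrd being the additions, no other call changed, and Gabrb2 in Early against Basal was -0.00586. With the replicate block in all groups 1, 4, 4, 5, 2 and 1 genes passed in Early, Late and Reactivated against Basal, Late against Early, Reactivated against Late and Reactivated against Early, and 7 over the 4 groups. Gabrb1 in Late against Early was then 0.37 (edgeR adjusted p 0.0521), and Gabrb2 in Early against Basal changed sign at -0.00112.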
